A study of Mus musculus with 6 samples.

Results

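The stretch of mouse chromosome 7 from 15 to 20 Mb carries the Obox, Psg and Ceacam gene clusters between gene-rich blocks, and its ATAC-seq sites are described here in wild type (WT) and HMGN double knockout (DKO) preadipocytes. ATAC-seq uses the transposase Tn5 to cut accessible DNA, and a peak marks a place cut more often than its surroundings. All lines of the 6 peak lists with a summit between 15000000 and 20000000 (mm10) were taken, and overlapping intervals were merged across the libraries into sites. This gave 650 sites of 267419 on chromosomes 1 to 19 and X. The stretch was chosen by its values in the WT against DKO contrast of these same libraries, namely its sites listed in 1 genotype and its fold enrichment. Those values are therefore given as a description. No test of the stretch was made on them, calls of a fit over the genome are only counted, and nothing is supported with either.

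The study compared the chromatin of preadipocytes from the inguinal white fat of adult WT and DKO mice, with 3 libraries of each genotype. DKO mice carry germline deletions of both genes (Hmgn1-/- and Hmgn2-/-), and the labels give the strain of both genotypes as C57BL/6. The cells were grown on collagen-coated plates and collected at day 0, with no differentiation medium. Each genotype is 1 mouse line, so the deletions and any other difference between the lines cannot be told apart, and replicates are samples whose separate animals are not stated.

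HMGN1 and HMGN2 are small proteins that bind nucleosomes without a DNA sequence preference. Psg genes encode the pregnancy-specific glycoproteins, secreted in large amounts by the placenta, and belong with the Ceacam cell adhesion molecules to the carcinoembryonic antigen family. The rodent Psg and Ceacam genes multiplied by tandem duplication, so that neighbouring genes and the DNA between them are near copies. Obox genes encode homeobox proteins of the oocyte and early embryo. The genes on either side include many that every cell uses, for DNA repair, splicing, transport and protein import, and CpG-rich promoters of such genes are open in most cell types.

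Each list held between 299433 and 299620 lines, close to a limit of 300000, and the lowest −log10 p in a list ran from 3.54 in DKO3 to 5.63 in WT3. A site without a line was thus under the limit of that list, which is not the same as closed chromatin. The promoter of Hmgn2 had a site in the 3 WT libraries (fold enrichment 7.89, 7.53 and 9.45) and in no DKO library, and that of Hmgn1 was listed in all 6. Of 9 progenitor marker promoters, 8 were listed in all 6 libraries. The fold enrichments of all 9, with Dlk1 unlisted in DKO2 and adding nothing there, summed to 56.7 to 64.1 in WT and 47.7 to 56.5 in DKO. Of 4 mature adipocyte promoters none was listed in all 6, and 3 of 4 endothelial promoters were, Pecam1 and Tek at fold enrichments of 10.3 to 18.2. The endothelial values summed to 33.3 to 42.1 in WT and 33.5 to 40.3 in DKO, with Cdh5 listed in the DKO libraries only and adding nothing in WT.

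The sequences below are the 300 bases around the summits of sites listed in all 3 libraries of 1 genotype and in none of the other (WT-only and DKO-only). They are shown because they are the first 5 WT-only and the first 2 DKO-only sites by median rank, in the Psg cluster and in the gene-rich blocks. All are from the + strand of mm10, written 5′ to 3′, and capitals mark a match to the AP-1 motif TGANTCA, which only the first one holds.

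WT-only, Psg19 to Psg17, chr7:18803463-18803762: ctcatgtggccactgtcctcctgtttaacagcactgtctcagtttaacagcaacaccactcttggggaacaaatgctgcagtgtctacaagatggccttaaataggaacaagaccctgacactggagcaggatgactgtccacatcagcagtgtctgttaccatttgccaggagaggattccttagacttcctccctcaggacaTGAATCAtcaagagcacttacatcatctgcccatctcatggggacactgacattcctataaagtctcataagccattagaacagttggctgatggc

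WT-only, Fosb to Ercc1, chr7:19342637-19342936: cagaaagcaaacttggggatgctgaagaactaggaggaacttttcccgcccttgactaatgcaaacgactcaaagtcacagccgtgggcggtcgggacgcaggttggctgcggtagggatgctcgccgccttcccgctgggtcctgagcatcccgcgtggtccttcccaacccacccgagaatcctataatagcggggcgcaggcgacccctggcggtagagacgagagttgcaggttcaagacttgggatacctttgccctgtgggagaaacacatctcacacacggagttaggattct

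WT-only, Psg22 to Psg19, chr7:18779585-18779884: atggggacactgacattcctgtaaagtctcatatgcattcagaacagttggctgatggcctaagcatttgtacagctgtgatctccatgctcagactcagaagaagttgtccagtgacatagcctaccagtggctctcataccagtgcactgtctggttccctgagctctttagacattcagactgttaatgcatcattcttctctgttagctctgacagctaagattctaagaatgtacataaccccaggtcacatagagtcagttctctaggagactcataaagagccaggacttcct

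WT-only, Psg20 to Psg22, chr7:18710408-18710707: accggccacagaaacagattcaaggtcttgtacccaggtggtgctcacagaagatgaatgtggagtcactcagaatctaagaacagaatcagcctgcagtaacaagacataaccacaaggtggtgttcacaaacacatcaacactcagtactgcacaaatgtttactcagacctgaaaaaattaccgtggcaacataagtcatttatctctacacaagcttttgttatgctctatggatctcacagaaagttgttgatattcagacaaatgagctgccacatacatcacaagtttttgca

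WT-only, Clasrp intron, chr7:19585724-19586023: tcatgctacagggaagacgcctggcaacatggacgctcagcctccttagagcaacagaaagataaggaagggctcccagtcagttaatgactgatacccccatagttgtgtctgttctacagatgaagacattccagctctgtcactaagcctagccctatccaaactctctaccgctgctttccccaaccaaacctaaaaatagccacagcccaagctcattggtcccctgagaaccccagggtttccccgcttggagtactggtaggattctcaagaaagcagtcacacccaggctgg

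DKO-only, Psg18 to Psg28, chr7:18404025-18404324: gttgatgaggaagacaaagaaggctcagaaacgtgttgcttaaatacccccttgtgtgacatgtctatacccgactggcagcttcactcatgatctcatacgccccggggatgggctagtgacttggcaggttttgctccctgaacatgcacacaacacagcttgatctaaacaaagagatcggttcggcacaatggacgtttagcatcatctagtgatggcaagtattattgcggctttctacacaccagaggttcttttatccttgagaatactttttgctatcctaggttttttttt

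DKO-only, upstream of Ceacam19, chr7:19888798-19889097: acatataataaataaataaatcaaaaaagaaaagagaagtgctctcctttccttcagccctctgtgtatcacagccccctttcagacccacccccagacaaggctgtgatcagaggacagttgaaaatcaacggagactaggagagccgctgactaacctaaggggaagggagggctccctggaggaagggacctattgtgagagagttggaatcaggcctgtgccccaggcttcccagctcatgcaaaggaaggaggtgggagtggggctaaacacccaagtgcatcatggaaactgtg

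Another DKO-only site between Psg18 and Psg28 is shown with its copy between Psg28 and Psg26, which lies 61.7 kb away and is also DKO-only. In this pair capitals mark the 7 of 140 bases that differ.

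DKO-only, Psg18 to Psg28, chr7:18403134-18403273: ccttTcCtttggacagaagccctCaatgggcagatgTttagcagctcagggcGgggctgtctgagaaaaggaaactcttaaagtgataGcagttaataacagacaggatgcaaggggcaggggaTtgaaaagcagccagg

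DKO-only, Psg28 to Psg26, chr7:18464788-18464927: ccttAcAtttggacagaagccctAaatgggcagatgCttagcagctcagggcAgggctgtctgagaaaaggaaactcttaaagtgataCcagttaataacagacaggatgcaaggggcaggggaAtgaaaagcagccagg

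The stretch was dense in sites compared with what adjoins it. It held 130 sites per Mb, against 19.2 in the 5 Mb before it (96 sites), 32.2 in the 5 Mb after it (161 sites) and 102 over the genome. Of its sites, 269 (41.4%) were listed in all 6 libraries and 174 (26.8%) in 1 library, compared with 37.0% and 32.2% over the genome. The sites were richer in G and C than those of the genome, with a median of 52.9% against 47.8%. Of the 650 sites, 185 (28.5%) lay within 1 kb of an annotated transcription start site (TSS), against 13.5% over the genome.

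Motifs were searched on both strands of the 300 bases around each summit. An AP-1 match was found in 19.4% of the sites, against 29.1% over the genome. The TEAD motif GGAATG was present in 18.9% against 20.8%, the RUNX motif TGTGGT in 23.4% against 24.9%, and the CEBP motif TTGCNNAA in 11.7% against 15.8%. Matches are descriptions of the letters in these windows.

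**Figure D1:**
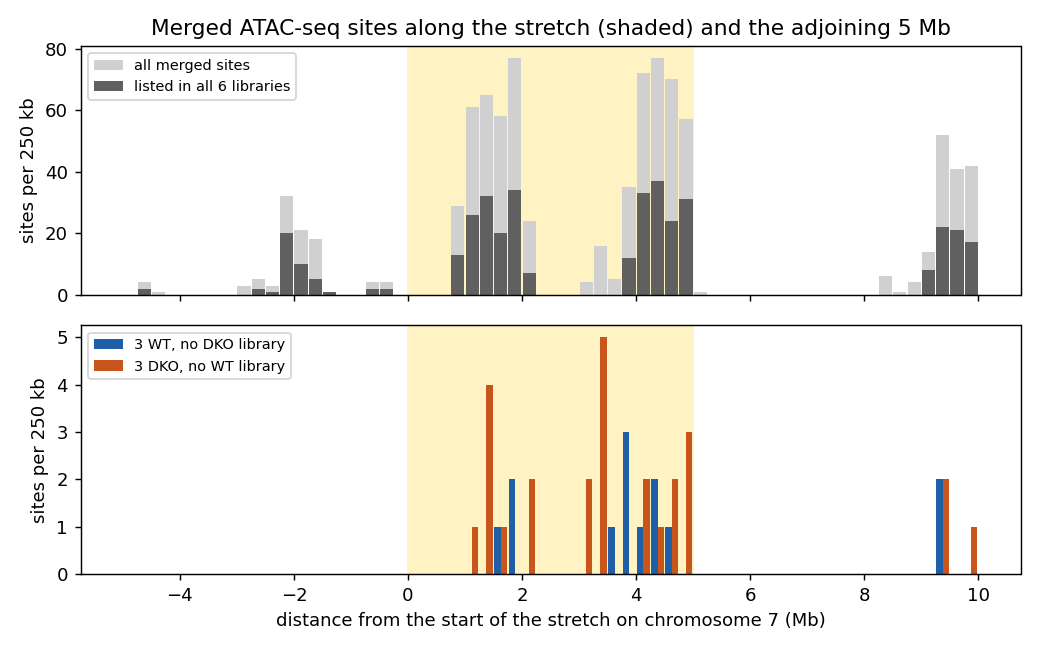
Sites per 250 kb (y axes) against the distance in Mb from the start of the stretch (x axis), with the stretch shaded. Upper panel, all merged sites and those listed in all 6 libraries; lower panel, WT-only and DKO-only sites. Crowded blocks of sites flank a sparse middle, and the bins of the sparse middle hold 7 DKO-only sites and 1 WT-only site between 3 and 3.75 Mb. The next bin, from 3.75 Mb, takes in the end of the Psg cluster and holds 3 WT-only sites and no DKO-only site.

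The sites were distributed unevenly, and 4 segments were set at gene boundaries. The first 0.840 Mb, with Obox1, Obox2, Obox3, Obox5 and Obox6, held 0 lines in any library, although the reference there has no unknown bases. A proximal gene-rich segment of 1.23 Mb and 39 coding genes followed, up to Psg16, with 304 sites (246 per Mb). The Psg and Ceacam segment, chr7:17074041-18821607, spans 1.75 Mb and 22 coding genes and held 41 sites (23.5 per Mb). A distal gene-rich segment of 1.178 Mb and 58 coding genes, from there to 20 Mb, held 305 sites (259 per Mb). At the edges, the first site inside the stretch, chr7:15859840-15859941, had fold enrichments of 3.98 in WT2 and 3.63, 3.68 and 3.93 in the DKO libraries. The nearest site before it, chr7:14622767-14623476, was listed in all 6 libraries at 5.12 to 8.22. The last site inside, at the Ceacam20 start, was listed in all 6, and the first one beyond, chr7:20050804-20051006, in DKO3 alone at 2.95.

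The stretch took a slightly larger share of the DKO lists. It held 812, 819 and 804 lines in WT1 to WT3 and 886, 884 and 856 lines in DKO1 to DKO3, so the groups did not overlap. As a share of each list this was 0.271%, 0.274% and 0.268% in WT and 0.296%, 0.295% and 0.286% in DKO. In the 5 Mb before it the counts were 142, 145 and 139 against 152, 146 and 145, and in the 5 Mb after it 201, 197 and 198 against 213, 206 and 218. In the former the groups met at 145 lines, and in the latter they did not overlap.

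Fold enrichment and rank of the lines did not follow the line counts. The median fold enrichment of the lines in the stretch was 5.46, 4.84 and 5.99 in WT and 4.79, 5.10 and 4.59 in DKO, and the groups overlapped. Over the whole lists the medians were 5.07, 4.55 and 5.87 in WT and 4.75, 4.82 and 4.35 in DKO. The median rank by p, where 1 is the smallest p of a list, was 116720, 116711 and 117750 in WT and 121542, 119856 and 119507 in DKO, so the median place was lower in DKO. The segments differed in this. In the proximal gene-rich one described below, ranks were 122140, 126268 and 126310 in WT and 119158, 120098 and 112792 in DKO, better in DKO, and in the distal one 106922, 106593 and 109002 against 117084, 115020 and 113529, better in WT. In the Psg and Ceacam segment they were 137971, 156086 and 157250 against 171758, 176894 and 215993, also better in WT. Among the best 50000 lines of each list the stretch held 206, 217 and 209 in WT and 196, 216 and 221 in DKO, and these groups overlapped.

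Sites listed in 1 genotype only made up 34 of the 650. The stretch held 11 WT-only sites (1.69%), beside a background of 0.86% over the genome, and 23 DKO-only sites (3.54%), beside 0.78%. With only the best 50000 lines of each list these counts were 7 (4.93% of the sites within that limit, genome 1.4%) and 6 (4.23%, genome 0.86%). With the best 100000 lines they were 5 (2.05%, genome 1.32%) and 9 (3.69%, genome 0.776%). Without WT3 there were 19 WT-only sites (2.99%, genome 1.74%) and without DKO1 17 (2.74%, genome 1.58%). The 5 Mb before it held 0 of both kinds and the 5 Mb after it 2 WT-only (1.24%) and 3 DKO-only sites (1.86%). By rank, 68 sites (10.5%) stood better in every WT than in every DKO library, where the background was 6.4%, and 74 (11.4%) stood better in every DKO library, where it was 4.65%. An unlisted site counted as ranked last, so sites listed in 1 genotype only are among these. Since this contrast chose the stretch, nothing is read from these shares.

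The strongest of the WT-only sites lay within the Psg cluster. The site chr7:18803340-18804116, in the DNA between Psg19 and Psg17, had fold enrichments of 19.03, 15.14 and 19.51 in WT1 to WT3, ranked 17785, 21496 and 24681 of their lists, and was in no DKO list. It was thus among the best 50000 lines of every WT library and under the limit in every DKO library. The site chr7:18779307-18780023, between Psg22 and Psg19, had 8.18, 6.55 and 11.4 in WT. The site chr7:18710428-18711205, between Psg20 and Psg22, had 9.05, 6.83 and 7.63. A weaker site, chr7:18781342-18781598, also between Psg22 and Psg19, had 5.26, 5.12 and 5.28. These 4 lie in the last 0.2 Mb of the cluster and are all of the WT-only sites of the Psg and Ceacam segment.

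The other WT-only sites lay among the gene-rich blocks. The site chr7:19342597-19342938, 272 bp from the start of the transcript D830036C21Rik between Fosb and Ercc1, had 4.04, 5.00 and 4.95 and was the second best by rank (80658, 48221 and 60325). A site in an intron of Clasrp, a gene of the splicing machinery, chr7:19585595-19586130, had 6.03, 6.14 and 10.6. One between Ap2s1 and Slc1a5, chr7:16753420-16753739, varied among the WT libraries, with 5.55, 3.13 and 9.98. An intron site of Vasp, an actin regulator, had 3.12, 3.23 and 3.21. The remaining 3, in introns of Strn4 and Rsph6a and between Ceacam15 and Ceacam9, ranged from 3.42 to 5.87.

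The DKO-only sites clustered in 2 places of the Psg segment and near Ceacam19. The site chr7:18403798-18404320, between Psg18 and Psg28, had 12.9, 16.2 and 11.8 in DKO1 to DKO3 at ranks 42979, 30340 and 40468, and no line in WT. Beside it lay chr7:18403134-18403273, with 8.11, 7.09 and 6.88, and chr7:18403549-18403691, with 5.59, 5.10 and 5.90. Farther on, between Psg28 and Psg26, the site chr7:18464720-18464927 had 5.31, 6.80 and 4.26 and chr7:18465215-18465367 had 4.19, 5.67 and 2.95. The other 4 of the 9 DKO-only sites of the segment, 2 of them between Igfl3 and Mill1, 1 between Ceacam3 and Psg29 and 1 in a Psg16 intron, ranged from 2.95 to 6.99.

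Near Ceacam19, a member of the Ceacam family outside the dense cluster, 3 DKO-only sites were listed. The site chr7:19888742-19889223, 983 bp from the Ceacam19 start, had 7.87, 8.12 and 4.92. The site chr7:19896058-19896555, between Ceacam19 and Pvr, the poliovirus receptor homologue, had 6.15, 9.35 and 6.88, and 80.3% of the 300 bases around its summit were soft-masked repeats. The third, between Ceacam16 and Ceacam19, had 3.35, 4.15 and 4.08. A DKO-only site 185 bp from the start of the lipoprotein gene Apoc1, chr7:19692787-19693011, had 5.21, 4.08 and 5.53.

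Of the DKO-only sites, 4 lay at the genes C5ar1 and C5ar2, which encode the complement C5a receptors of myeloid cells, or next to them. The C5ar1 promoter site had 4.13, 2.98 and 5.96, an intron site of C5ar1 had 3.12, 5.07 and 3.67, an intron site of C5ar2 had 3.84, 3.97 and 3.33, and the one beyond C5ar1 had 3.70, 3.68 and 2.95. Leukocyte marker promoters were counted beside these sites, and none was called by the fit. Of 6 such promoters, WT1 listed 2, WT2 and WT3 listed 1, and each DKO library listed 3. Their summed fold enrichment, to which an unlisted promoter added nothing, was 5.38 to 8.29 in WT and 12.7 to 15.6 in DKO. These sums thus depend on the limits of the lists. Cd68 alone had 4.79, 5.73 and 5.38 in WT and 5.93, 6.26 and 5.78 in DKO. Itgam was listed in the 3 DKO libraries (4.19, 5.95 and 3.28), Adgre1 in DKO1 and DKO2, Ptprc in WT1 alone, Cd3e in DKO3 alone, Cd68 in all 6 and Cd79a in none. The part of leukocytes in these sites was not tested, and in bulk libraries more cells of a type and more accessibility per cell cannot be told apart. The other DKO-only sites, at or near Arhgap35, Gipr, Zfp296, Dmwd and Mark4, ranged from 2.69 to 5.69.

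**Figure D2:**
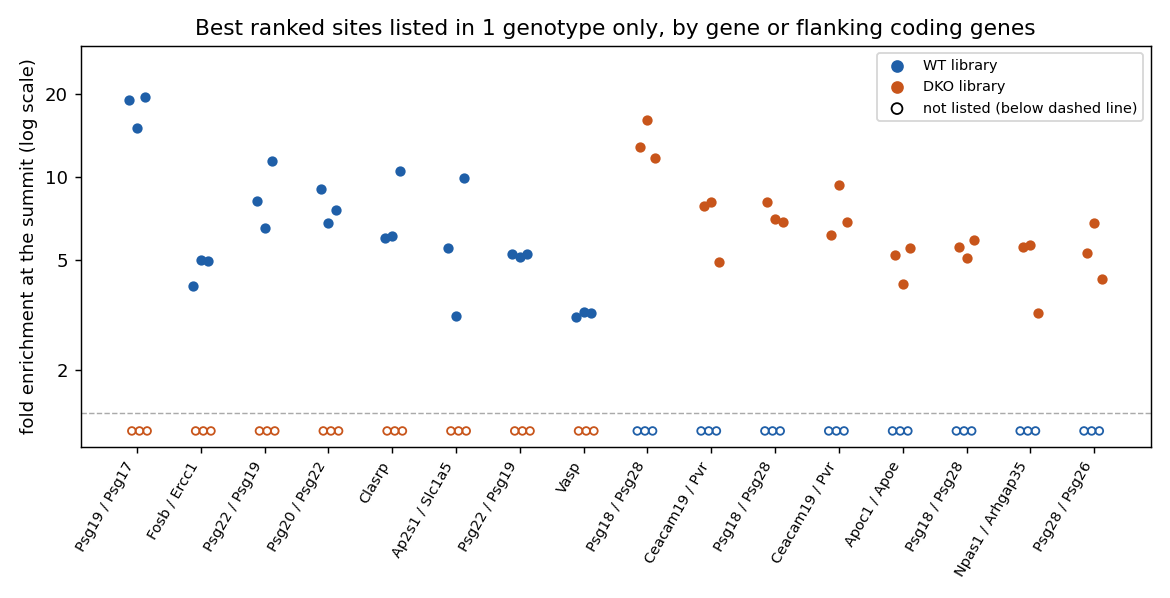
Fold enrichment (y axis, log scale) of the 8 best ranked WT-only sites (left) and the 8 best ranked DKO-only sites (right), 1 point per library, labelled on the x axis by the gene that holds the site or the coding genes on either side. Open circles under the dashed line are libraries without a line there and carry no value; the listed points reach 19.5 in WT and 16.2 in DKO.

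Some of these sites, 8 of the 34, had another site listed in the same genotype only among their copies. Each site was aligned to chromosome 7 from 10 to 25 Mb, and a copy was another place where the alignment covered at least 80% of it. Of the 650 sites, 46 (7.08%) had a copy. In the Psg and Ceacam segment this was 27 of 41 (65.9%), against 3.62% and 2.62% in the gene-rich segments. Sites listed in all 6 libraries had a copy in 3 of 269 cases (1.12%), WT-only sites in 4 of 11 and DKO-only sites in 6 of 23.

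Each WT-only site with a copy had another WT-only site among its copies. The site between Psg19 and Psg17 was 84.2% identical to the WT-only site at chr7:18779307-18780023 over 772 aligned bases. The former had 15 copies, at 66.1% to 87.2% identity, and that WT-only site was the only one of them with a line in any list. The latter had 13 copies, and again only its WT-only partner was listed. The site between Psg20 and Psg22 was 93.7% identical, on the opposite strand, to DNA that overlaps the WT-only site chr7:18781342-18781598. Its other copy, at 85.5% identity, overlaps a site listed in WT3 alone.

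The DKO-only sites around 18.4 Mb were likewise 1 duplicated block. The 140-base site shown above was 95% identical to a part of the DKO-only site between Psg28 and Psg26, and chr7:18403549-18403691 was 93.0% identical to its DKO-only neighbour there. The strongest site of the block, chr7:18403798-18404320, had a single copy of 94.5% identity, chr7:18465505-18466029, which no library listed. Sites of such a pair share sequence and are not replicates of each other. How reads with several equally good alignments were treated is not given in the sources used here, and its part in these values was not tested.

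The Psg and Ceacam segment differed from the rest of the stretch in other features too. Of its 41 sites, 2 (4.88%) were listed in all 6 libraries and 21 (51.2%) in 1 library, against 131 of 304 and 71 of 304 in the proximal gene-rich segment. Its sites were narrow, with a median of 163 bp against 251.5 bp and 250 bp in the gene-rich segments, and 0 of 41 lay within 1 kb of a TSS. The WT libraries listed 7, 10 and 8 of its sites and the DKO libraries 15, 16 and 31. DKO3, the library with the lowest list limit, stood apart here. Of the 21 sites listed once, 16 were listed in DKO3, and without that library 25 sites were left, with 4 WT-only and 10 DKO-only sites. The site chr7:18749361-18750342, between Psg22 and Psg19, was one of the 2 listed everywhere, with 27.5, 17.1 and 29.6 in WT and 22.9, 20.9 and 17.4 in DKO. This strong site lies between WT-only sites, and its groups overlapped. The other, in a Psg16 intron, had 7.01, 4.84 and 8.81 in WT and 7.55, 7.89 and 5.90 in DKO.

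**Figure D3:**
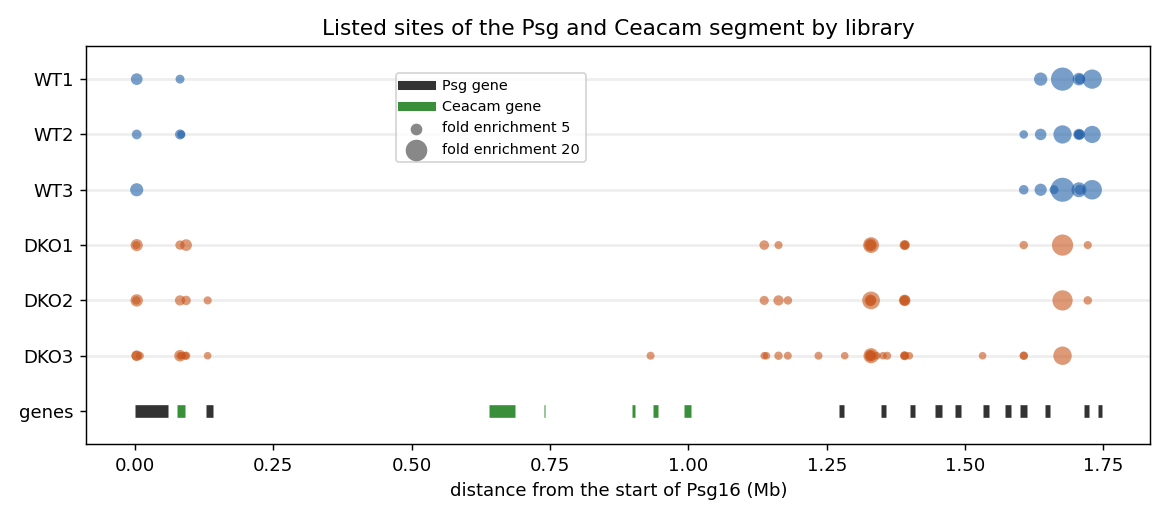
Listed sites of the Psg and Ceacam segment in each library (rows) against the distance in Mb from the start of Psg16 (x axis), with point area proportional to fold enrichment and the Psg and Ceacam genes drawn in the bottom row. WT-only points lie in the last 0.2 Mb, DKO-only points are densest near 1.33 and 1.39 Mb, and DKO3 has the most points, 31 against 7 to 16 in the others.

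By gene, the Psg and Ceacam promoters were nearly empty and the housekeeping promoters were filled. Of 13 Psg genes, 1 had a site within 1 kb of a TSS, and 8 had no site at their start or in their body. That site, at Psg16 and just outside the segment, had 6.72, 6.83 and 11.4 in WT and 7.55, 9.35 and 3.93 in DKO, and the groups overlapped. Of 11 Ceacam genes, 2 had a promoter site. Ceacam19 had 3, of which the DKO-only site was the best ranked, 1 was listed in WT1, DKO2 and DKO3 (4.09, 3.64 and 2.95) and 1 in DKO1 alone, and 2 sites in its body were listed in all 6 libraries. Ceacam20 had a single one with 5.55, 5.69 and 9.10 in WT and 5.31, 7.65 and 5.57 in DKO. Ceacam5, Ceacam11 and Ceacam14 lie in a run of 250-kb bins without a line in any library, from 2.25 to 3 Mb from the start of the stretch. None of 5 Obox genes had a site.

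All of 31 housekeeping genes had a promoter site, and in 30 of them it was listed in all 6 libraries. Tomm40, a pore of the mitochondrial outer membrane, had 18.6, 17.6 and 18.6 in WT and 19.2, 18.9 and 19.3 in DKO. Calm3, a calmodulin gene, had 18.4, 16.2 and 21.5 against 19.3, 18.5 and 19.7. The DNA repair gene Ercc2 had 17.2, 13.0 and 17.2 against 12.4, 14.0 and 15.2. Values at these promoters lay close together, and the groups overlapped in fold enrichment at Calm3 and Ercc2 but not at Tomm40.

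Some housekeeping promoters had groups that did not overlap. Ap2s1, the small subunit of the AP-2 clathrin adaptor, had 20.3, 18.3 and 20.5 in WT and 15.1, 16.1 and 15.1 in DKO. Clptm1 had 7.48, 7.08 and 7.81 against 5.66, 5.52 and 5.71, and Opa3, a mitochondrial protein, 14.0, 12.7 and 14.8 against 10.7, 11.1 and 11.4. In the scaled fit described below their log2 changes were -0.21 (SE 0.099), -0.20 (SE 0.17) and -0.15 (SE 0.12), and none of these 3 was called. In the other direction, Irf2bp1, a transcriptional corepressor, had 10.4, 8.93 and 11.04 in WT and 15.3, 17.7 and 16.2 in DKO. In the scaled fit, 18 of the 30 tested housekeeping promoters changed upward in DKO and 12 downward. Their median log2 change was 0.10, beside 0.077 over the promoter sites of the genome. By rank, 7 of the 31 promoters stood better in every WT library and 3 in every DKO library, where among tested promoter sites these shares were 6.96% and 9.73% over the genome and 13.0% and 15.1% in the stretch. Qpctl and Snrpd2 share 1 site, so do Cd3eap and Ppp1r13l, a regulator in the next list, and Sympk and Foxa3, a tissue-restricted gene, so these counts are not of separate sites throughout.

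Other groups were sparser or shared between genotypes. Of 7 genes for inducible transcription factors and regulators, 5 had a promoter site in all 6 libraries. Fosb, an AP-1 subunit, had 4.80, 5.03 and 5.19 in WT and 4.14, 3.70 and 3.09 in DKO at the best ranked of its 3 promoter sites. There the groups did not overlap, but the scaled log2 change was -0.31 (SE 0.26) and was not called. Relb, an NF-kappaB subunit, had 16.8, 14.7 and 17.3 against 17.0, 17.5 and 17.4. Of the 4 lipoprotein genes, Apoe had 3.93, 3.68 and 4.21 against 4.54, 3.72 and 3.91, and Apoc1 had 3.36, 5.30 and 4.44 against 7.79, 9.02 and 5.56. No site was listed within 1 kb of the starts of Apoc2 and Apoc4. Of 15 tissue-restricted genes, 9 had a promoter site in all 6, Foxa3 through the Sympk site, among them Dmpk, a muscle kinase, with 7.11, 7.50 and 8.48 against 5.51, 5.62 and 3.82, while Ckm, the muscle creatine kinase, and Crx, a photoreceptor factor, had none.

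**Figure D4:**
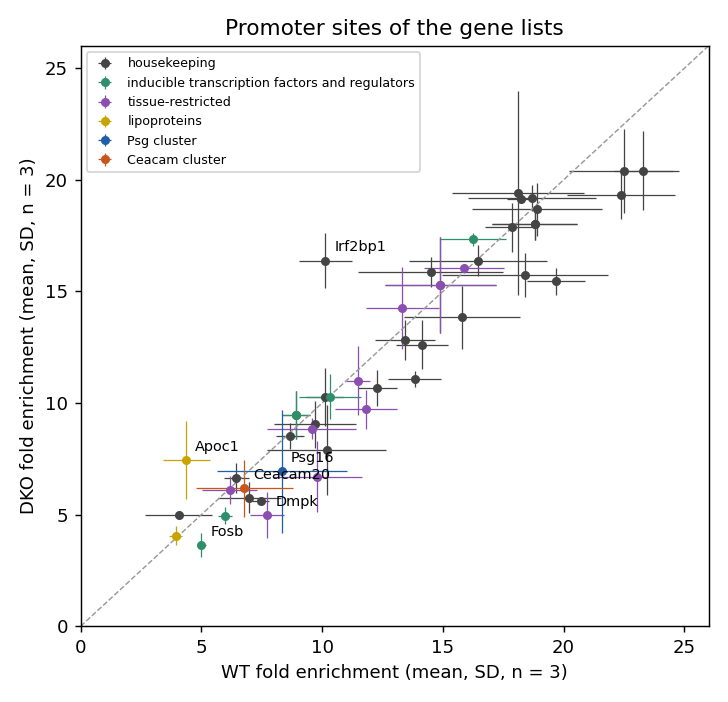
Mean fold enrichment in DKO (y axis) against WT (x axis) of the best ranked promoter site of each listed gene, for sites in all 6 libraries; bars are SD of 3 libraries, and the dashed line marks equal values. Housekeeping promoters lie on both sides of the line. Ap2s1 (19.7 in WT, 15.4 in DKO) and Opa3 (13.8, 11.1) lie below it, Arhgap35 (14.5, 15.9) and Irf2bp1 (10.1, 16.4) above. From the other lists, Apoc1 (4.37, 7.46) lies above it and Dmpk (7.70, 4.98) below.

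A fit across the genome placed the sites on 1 scale. The log2 values were brought to equal quantiles, and limma estimated the DKO minus WT change at the 181434 sites listed in at least 2 libraries, of which 476 are in the stretch. An unlisted site took the lowest fold enrichment of its list, 1.49 to 1.57. For sites listed in 1 genotype only the fitted change measures height above that value, not above the end of the list by p. A line at the lowest −log10 p of DKO3, 3.54, still had a fold enrichment of 2.95. At an adjusted threshold of 0.05, 4 sites of the stretch (0.840%) were lower in DKO, beside 0.0375% over the genome, and 6 (1.26%) were higher, beside 0.0226%. The 5 Mb before it held 0 called sites and the 5 Mb after it 1 in each direction. The calls were of this same contrast and are given as a description. When any 1 library was left out, no site was called, in the stretch or anywhere in the genome.

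Of the 10 called sites, 6 were listed in 1 genotype only. The lower ones were the WT-only sites between Psg19 and Psg17 (log2 change -3.46, SE 0.20), between Psg22 and Psg19 and between Psg20 and Psg22. The higher ones were the DKO-only sites chr7:18403798-18404320 (3.21, SE 0.23) and chr7:18403134-18403273 and the one between Ceacam19 and Pvr. The remaining 4 were listed in all 6 libraries, so none of their values was filled in. One of them, the exon site of Ccdc61 given below, stood near the end of the WT2 list. It had rank 289848 and a −log10 p of 3.99 there, where the lowest was 3.63.

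An intron of the antisense transcript Gm29443, chr7:16628045-16628429, had 20.73, 17.997 and 22.74 in WT and 10.9, 10.8 and 8.52 in DKO (log2 change -0.88, SE 0.10). An intron of Arhgap35 held the site chr7:16537406-16538262, with 8.18, 4.55 and 7.04 in WT and 13.0, 21.1 and 14.9 in DKO (1.49, SE 0.20). An exon site of Ccdc61, chr7:18893613-18894169, had 3.67, 2.82 and 4.57 against 9.99, 10.98 and 7.35 (1.54, SE 0.20). The Irf2bp1 site, 698 bp from its start, changed by 0.86 (SE 0.11). In each of these 4 the groups did not overlap.

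The median fitted change over the 476 sites was 0.13 on the log2 scale, with quartiles of -0.17 and 0.44, and 294 (61.8%) were above 0, against a median of 0.0097 and 51.4% over the genome. It was 0.056 and 0.071 in the adjoining 5 Mb and 0.030 over chromosome 7. The sites listed in all 6 libraries had a median of 0.10 in the stretch and 0.019 over the genome. Promoter sites, within 1 kb of a TSS, had a median of 0.13 in the stretch and 0.077 over the genome, and the stretch's sites farther away had 0.12. By segment the median was 0.10 in the proximal gene-rich segment, 0.89 over the 20 tested sites of the Psg and Ceacam segment and 0.13 in the distal one. Of those 20 sites, 13 were listed in 1 genotype only, and the 2 listed in all 6 libraries had a median of 0.067. Without scaling of the lists the median of the stretch was -0.03 and that of the genome -0.13, so the sign of the median depends on the scaling, while the stretch lay above the genome in both.

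**Figure D5:**
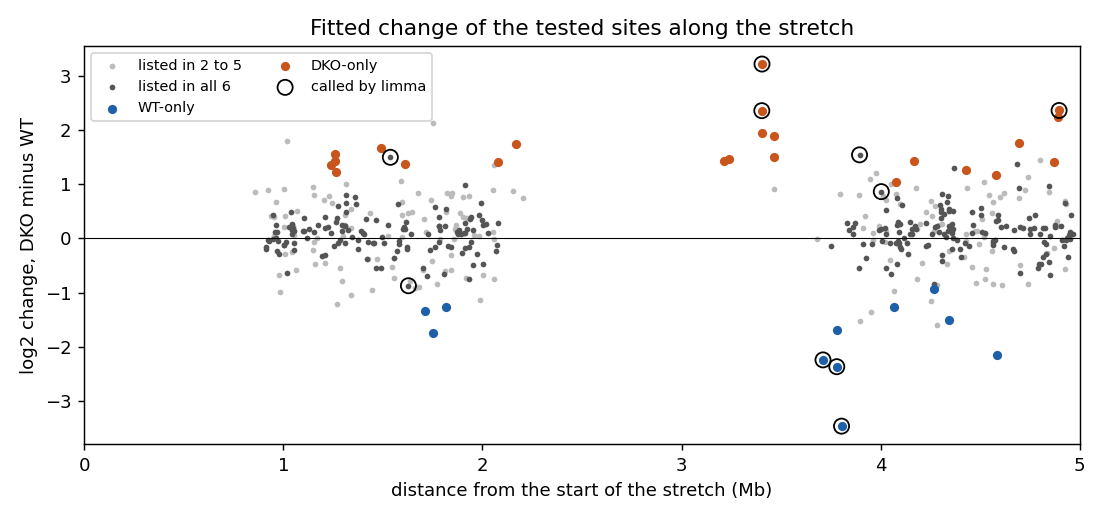
Fitted log2 change, DKO minus WT (y axis), of the 476 tested sites against the distance in Mb from the start of the stretch (x axis), coloured by the libraries that list them, with rings around the 10 called sites. Sites listed in all 6 libraries lie mostly between -1 and 1, and the extremes, -3.46 and 3.21, are sites listed in 1 genotype only.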

How the data were processed

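Peak lists from ATAC-seq of preadipocytes at day 0 (3 WT, 3 DKO) were used, grouped by sample title. Per the study's methods, the submitters' processing notes and the names of the lists, the authors aligned paired-end reads to mm10 with Bowtie2 2.3.4.3, removed duplicate and mitochondrial reads, and called peaks with MACS2 per library. The names of the lists give a p of 0.01, the 300000 best peaks and a blacklist filter, while the methods give default settings. Column 7, as deposited, is the fold enrichment of a summit, a ratio of cuts there to nearby background. Columns 8 and 9, as deposited by the authors, are −log10 of p and q and gave the ranks and the limits of the lists. Read totals were not analysed here, so the depth is unknown.

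Intervals overlapping by at least 1 bp were merged over libraries. Log2 of the highest fold enrichment per site was quantile-normalized and tested with limma 3.58.1 (R 4.3.3, eBayes with trend, two-sided, Benjamini-Hochberg over 181434 sites, threshold 0.05). On simulated data, 56.5% of 200 sites changed by 2 log2 units were called and 4.5% of 200 changed by 1 unit. Genes and TSS came from GENCODE M21 (basic), sequences from GRCm38, whose chromosome lengths fit the lists, and copies from BLAST 2.17.0. Named sites were the 8 best ranked WT-only and DKO-only sites, all called sites and the best ranked promoter site of each gene of the lists; further sites listed in 1 genotype and the shared sites of the Psg segment were named after their values were seen. The members and lists were chosen with earlier results of these data known.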

Additional observations from a re-analysis of the deposited data

How the results depend on the processing

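With presence limited to the best 50000 lines of each list, 7 sites were WT-only and 6 DKO-only (genome 1.4% and 0.86% of sites within that limit), and with the best 100000 lines 5 and 9 (1.32% and 0.776%). Counting sites in at least 2 of 3 libraries of 1 genotype and none of the other gave 28 and 50 (4.31% and 7.69%, genome 3.44% and 3.36%), and leaving out 1 library gave 14 to 19 (2.36% to 2.99%, genome 1.58% to 1.92%) and 27 to 33 (4.25% to 5.56%, genome 1.28% to 1.79%), with 19 WT-only sites without WT3 and 17 without DKO1. The Psg and Ceacam segment held 25 to 41 sites when 1 library was left out, 25 without DKO3, with 4 WT-only sites each time and 9 to 11 DKO-only sites. These segment counts were added after seeing the data.

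The limma calls, 4 lower and 6 higher, depended on the settings. Without scaling there was 1 in each direction (0.21% each, genome 0.00827% lower and 0.00551% higher) and the median log2 change was -0.032. With eBayes without trend there were 10 lower and 26 higher, where the genome had 1.2% and 1.16%. There were 10 higher with median centring (genome 0.0524%), 10 over sites listed in all 6 libraries (0.289%) and 11 without the filter on listing (0.0553%). Leaving out any 1 library gave 0 calls by limma in either direction, both in the stretch and over the genome. In these limma fits 94 to 108 sites of the stretch had an unadjusted p under 0.05 (20.5% to 23.9%, genome 10.4% to 12.3%). The median change was 0.10 to 0.15. With the replicate number as a block (replicate block) limma called 0 and 0 in the stretch, and 0 and 0 over the genome. By that fit 92 sites (19.3%, genome 9.51%) had an unadjusted p under 0.05. Whether equal replicate numbers share a culture is not stated, and the main fit used no pairing. The deviations of same-numbered libraries correlated at 0.0060, -0.0080 and -0.0045. This cannot decide the pairing, as libraries of unlike number were not compared. The causes were not tested. Over 66 named sites, 39 of the 642 values under settings that can change them moved by more than the replicate spread, 36 of them without scaling and 3 without DKO3. The sign changed in 29, 10 of them without scaling, and in 0 of the called sites. The depth is unknown, so a site without a line could not be told from one just under the limit of its list.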
